A study of Mus musculus with 5 samples.

Results

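The NRF2 antioxidant pathway was followed in mouse N2A neuroblastoma cells through 10 genes, the rows of the gene count table named Nfe2l2, Keap1, Slc7a11, Gclc, Gclm, Gsr, Nqo1, Srxn1, Hmox1 and Osgin1, out of 55573 genes in the table. Osgin1 and Slc7a11 were selected on their lower values in the comparison described here, with no numerical threshold, and their values are therefore given as a description with no test. The other 8 genes were chosen by their role in the pathway, with earlier results of these data known. Poly(A) RNA was sequenced from cells transfected with 60 pmol of a negative control siRNA (siCtl, 2 libraries, replicates 1 and 3) or with 60 pmol of an siRNA against Upf1 (siUpf1, 3 libraries, replicates 1, 2 and 3). Both groups were unmodified cells of a single line that received the same transfection reagent, and the transfection was transient. UPF1 is the RNA helicase on which nonsense-mediated mRNA decay (NMD) depends, and the comparison asks which mRNAs change in level when UPF1 is depleted.

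NRF2, the product of Nfe2l2, is a transcription factor that is held at a low level by KEAP1, the adaptor that hands it to a CUL3 ubiquitin ligase for degradation. Oxidants and electrophiles modify KEAP1, NRF2 then accumulates, pairs with small MAF proteins and activates genes that carry antioxidant response elements. Those genes supply cysteine, glutathione and NADPH, reduce oxidized proteins and quinones, and break down heme.

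The Upf1 siRNA is shown because it defines the treated group and its seeds were searched for in the 3′ UTRs of the 10 genes. In GENCODE M21 (GRCm38), its sense strand matches the coding sequence of Upf1 across the junction of exons 8 and 9 of 24, with 15 bases at chr8:70339743-70339757 and 4 bases at chr8:70339429-70339432 on the minus strand. The capitals mark bases 2 to 8, the seed of each strand, and the antisense strand was derived as the reverse complement of the sense strand.
Upf1 siRNA, sense strand: uCAAGGUUccugauaauua
Upf1 siRNA, antisense strand: uAAUUAUCaggaaccuuga
Upf1 mRNA was measured at 5217 and 5243 normalized read counts in the siCtl libraries and at 2403, 2496 and 2449 in the siUpf1 libraries. Every siUpf1 library lay below both siCtl libraries, and the siUpf1 mean was 46.8% of the siCtl mean (log2 fold change -1.10 with SE 0.0507 and DESeq2 adjusted p = 7.09e-101). The libraries held 20402205 to 27717594 counted reads, the smallest being siUpf1 replicate 2. Normalized read counts are the reads of a gene divided by the library's size factor, and all fold changes are siUpf1 over siCtl.

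Of 13 markers of the sympathetic neuroblastoma lineage, 11 were expressed and Nefl and Nefm had fewer than 10 reads in every library. The summed level of that list was 49616 to 49692 normalized counts in siCtl and 54247 to 58052 in siUpf1, with 7 of the 13 genes called higher and 2 called lower. The summed level of 12 markers of other cell types was 696 to 739 in siCtl and 677 to 718 in siUpf1. The highest of the 12 was Mbp, at 373.2 and 410.4 in siCtl and at 453.6, 484.5 and 438.6 in siUpf1. Mbp was higher without overlap but not called (DESeq2 adjusted p = 0.116). Pecam1 was next, at 201.3 and 214.2 in siCtl and at 115.6, 120.5 and 127.5 in siUpf1. It was the only one of the 12 genes called (lower), so Mbp and Pecam1 moved in opposite directions within that sum. Aqp4, Alb, Epcam and Krt18 were at 0 in both siCtl libraries. The part of this shift in lineage markers in the results that follow was not tested. In bulk RNA, fewer cells that express a gene and less of its RNA per cell cannot be told apart.

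Among the 10 genes, 9 were lower in all 3 siUpf1 libraries than in both siCtl libraries, and only Gclc overlapped between the groups. Over all 15191 genes tested, 35.2% were lower without overlap. Of the 8 genes chosen by role, 7 were called lower, 0 were called higher and 1 (Gclc) was not called at a DESeq2 adjusted p under 0.05. Over all genes tested, 22.9% were called lower and 22.0% were called higher. The rule used this comparison, so the counts of members are a description. The median log2 fold change was -0.49 over the 10 genes and -0.0024 over all genes tested. The median of the 10 includes Osgin1 and Slc7a11, selected on their lower values, so it too is a description.

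**Figure D1:**
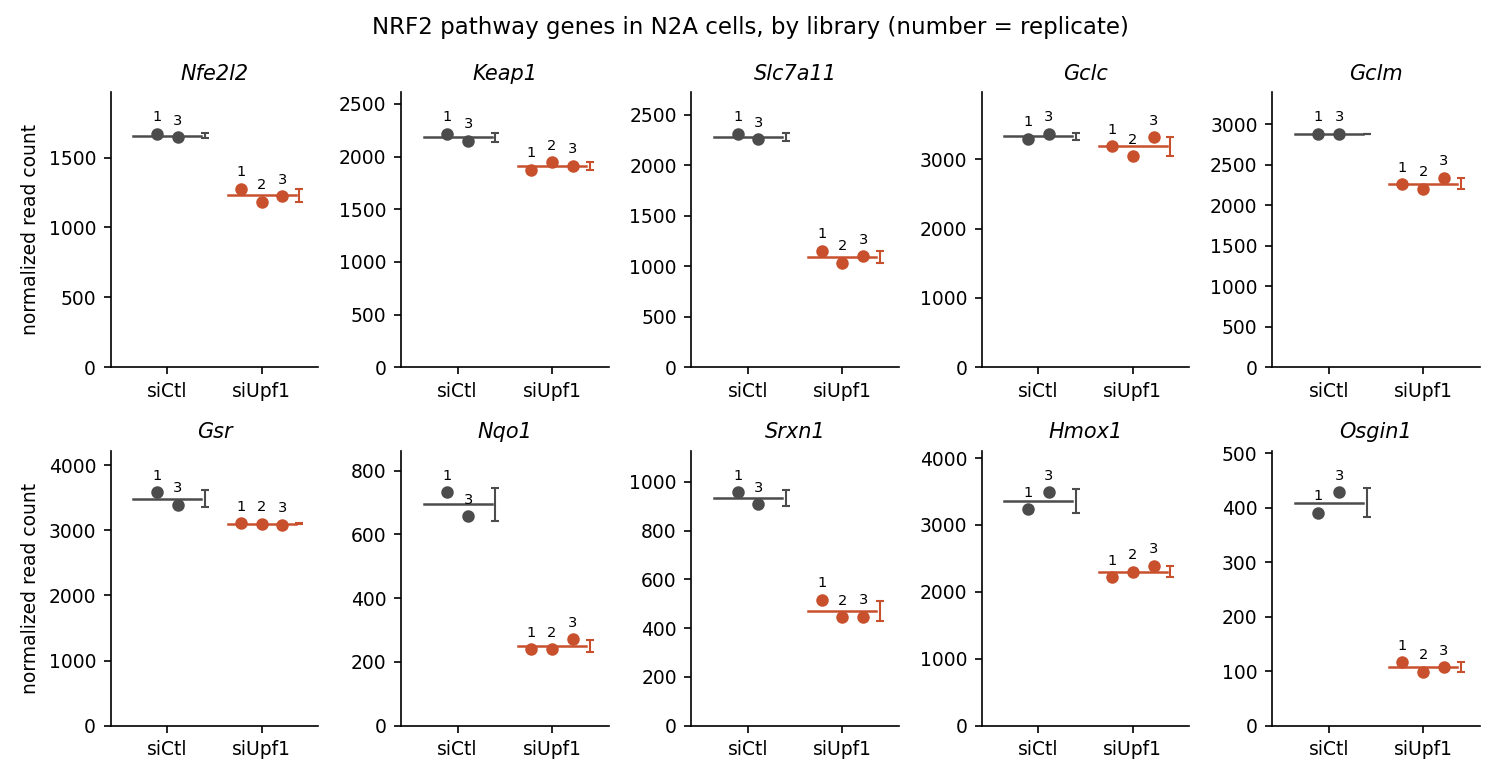
Normalized read count (y axis, from 0) of each of the 10 genes in every library, with siCtl in grey and siUpf1 in orange. Digits give the replicate, horizontal lines the group mean and error bars the SD, and all siUpf1 points lie below all siCtl points in every panel except that of Gclc.

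The pathway's own regulators were both lower. Nfe2l2, which encodes NRF2 (ENSMUSG00000015839.6, chr2:75675513-75704641, minus strand), was measured at 1669 and 1645 normalized read counts in siCtl and at 1277, 1185 and 1224 in siUpf1. The groups did not overlap, and the mean went from 1657 ± 16.6 (SD, n = 2) to 1229 ± 46.4 (SD, n = 3), which is 74.1% of siCtl (log2 fold change -0.43 with SE 0.0708 and DESeq2 adjusted p = 9.3e-09). Keap1, which encodes the adaptor that presents NRF2 for degradation (ENSMUSG00000003308.15, chr9:21229730-21239361, minus strand), was measured at 2214 and 2151 in siCtl and at 1876, 1947 and 1911 in siUpf1. Its groups did not overlap either, although the difference was small, with the siUpf1 mean at 87.6% of siCtl (log2 fold change -0.19 with SE 0.0609 and DESeq2 adjusted p = 0.00479). The call for Keap1 was lost without siCtl replicate 1 (log2 fold change -0.175, DESeq2 adjusted p = 0.114).

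Cystine import and glutathione synthesis came next in the order of roles, and the siUpf1 means of the 4 genes lay between 48.0% and 95.6% of siCtl. Slc7a11 encodes xCT, the light chain of the cystine and glutamate exchanger that brings in the precursor of cysteine (ENSMUSG00000027737.10, chr3:49892526-50443614, minus strand). Its mRNA was measured at 2310.3 and 2257 normalized read counts in siCtl and at 1153, 1034 and 1098 in siUpf1. All siUpf1 libraries lay far below both siCtl libraries, and the mean went from 2284 ± 37.9 (SD, n = 2) to 1095 ± 59.3 (SD, n = 3), or 48.0% of siCtl (log2 fold change -1.06, SE 0.0702). A lower log2 fold change was found for 2.31% of the genes tested, a description too, since Slc7a11 was selected on its lower values.

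Gclc and Gclm encode the catalytic and the modifier subunit of glutamate-cysteine ligase, the rate-limiting enzyme of glutathione synthesis. Gclc (ENSMUSG00000032350.9, chr9:77754535-77794485, plus strand) was measured at 3299 and 3365 normalized read counts in siCtl and at 3189, 3046 and 3321 in siUpf1. Here siUpf1 replicate 3 lay between the siCtl libraries, and the difference was not called (log2 fold change -0.06, 95% confidence interval -0.173 to 0.046, DESeq2 adjusted p = 0.378). Gclm (ENSMUSG00000028124.15, chr3:122245557-122270732, plus strand) was measured at 2877 in both siCtl libraries and at 2259, 2199 and 2336 in siUpf1. The siUpf1 libraries were all lower and averaged 78.7% of siCtl, so that the mRNA of the modifier subunit fell where that of the catalytic subunit was not called (log2 fold change -0.34 with SE 0.0573 and DESeq2 adjusted p = 1.36e-08). The difference between the fold changes of these subunits was not tested. Exons of Gclm overlap those of the pseudogene Gm6061 on the same strand, which held 6 to 15 reads per library.

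Gsr encodes glutathione reductase, which returns oxidized glutathione to its reduced form with NADPH (ENSMUSG00000031584.16, chr8:33652523-33698163, plus strand). It was measured at 3579.7 and 3389.8 normalized read counts in siCtl and at 3106, 3099 and 3088 in siUpf1. The siUpf1 libraries were close together and all lower, at 88.9% of the siCtl mean (log2 fold change -0.17 with SE 0.053 and DESeq2 adjusted p = 0.00408). The siCtl libraries differed more from each other than the siUpf1 libraries did, and without siCtl replicate 1 the call was lost (log2 fold change -0.13, DESeq2 adjusted p = 0.165).

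The redox enzymes of the set all fell. Nqo1 encodes a quinone reductase that is widely used as a readout of NRF2 (ENSMUSG00000003849.8, chr8:107388225-107403206, minus strand), and was measured at 731.7 and 656.6 normalized read counts in siCtl and at 239.2, 239.7 and 271.9 in siUpf1. The 3 siUpf1 libraries were all far below both siCtl libraries, and the mean went from 694 ± 53.1 (SD, n = 2) to 250.3 ± 18.7 (SD, n = 3), or 36.1% of siCtl (log2 fold change -1.47 with SE 0.123 and DESeq2 adjusted p = 3.53e-31). This was the lowest fold change of the 8 genes chosen by role. Srxn1 encodes sulfiredoxin, which repairs overoxidized peroxiredoxins (ENSMUSG00000032802.8, chr2:152105516-152111376, plus strand), and was measured at 957 and 909.5 in siCtl and at 516.7, 445.5 and 447.5 in siUpf1. The groups were well apart, with siUpf1 at 50.4% of siCtl (log2 fold change -0.99 with SE 0.102 and DESeq2 adjusted p = 9.61e-21). Hmox1 encodes the inducible heme oxygenase, which degrades heme to biliverdin, iron and carbon monoxide (ENSMUSG00000005413.8, chr8:75093621-75100589, plus strand), and was measured at 3236 and 3485 in siCtl and at 2221, 2302 and 2386 in siUpf1. No siUpf1 library reached the siCtl values, and the siUpf1 mean was 68.5% of siCtl (log2 fold change -0.55 with SE 0.0599 and DESeq2 adjusted p = 1.45e-18).

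Osgin1 encodes oxidative stress-induced growth inhibitor 1, a protein linked to growth arrest and cell death under oxidative stress (ENSMUSG00000074063.10, chr8:119434124-119446256, plus strand). It was measured at 391 and 428.3 normalized read counts in siCtl and at 116.5, 99.2 and 107 in siUpf1. The groups were separated by more than the highest siUpf1 value, and the mean went from 409.7 ± 26.4 (SD, n = 2) to 107.5 ± 8.69 (SD, n = 3), or 26.3% of siCtl (log2 fold change -1.92, SE 0.164). A share of 0.204% of the genes tested had a lower log2 fold change, which is a description, since Osgin1 was selected on its lower values. These values rest on 373 and 454 reads in siCtl and on 131, 79 and 120 reads in siUpf1, the fewest of the 10 genes. Its paralog Osgin2 (ENSMUSG00000041153.9) was measured at 297.7 and 286.8 normalized read counts in siCtl and at 588.8, 514.6 and 591 in siUpf1. Osgin2 thus rose in all 3 siUpf1 libraries (log2 fold change 0.95 with SE 0.122 and DESeq2 adjusted p = 5.31e-14).

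**Figure D2:**
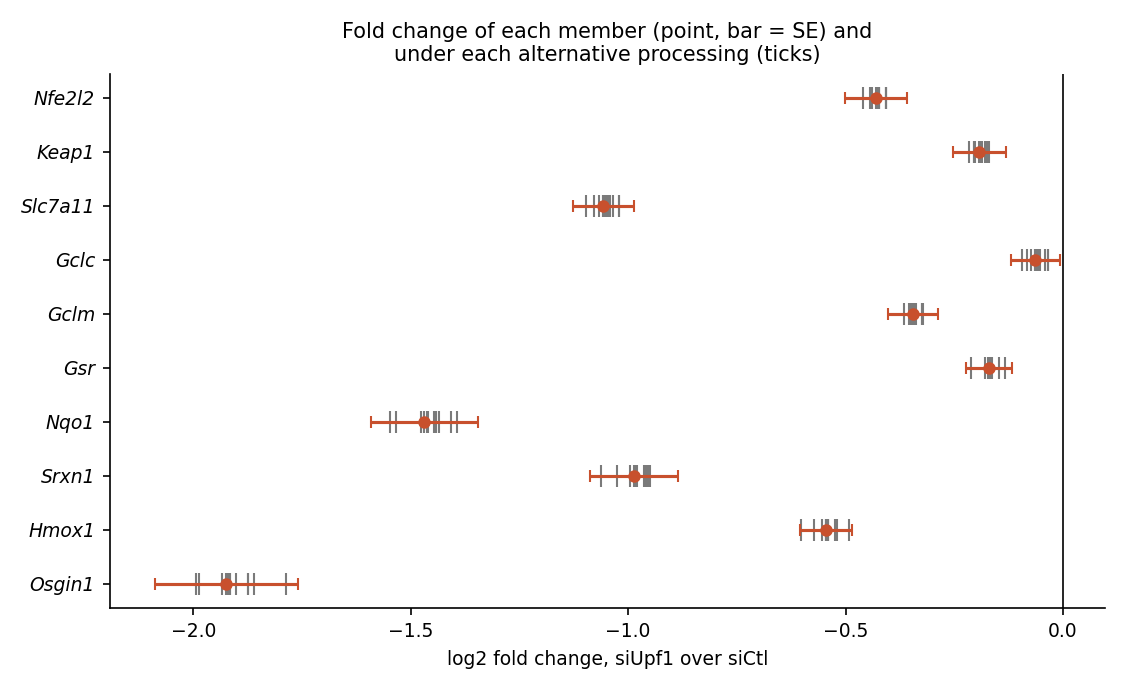
Log2 fold change of siUpf1 over siCtl (x axis) of the 10 genes, ordered by role, with orange points and bars for the value and its SE and grey ticks for the value under each of 12 alternative settings. Every tick lies below 0, from -1.99 for Osgin1 to -0.03 for Gclc, and the order of Osgin1, Nqo1, Slc7a11 and Srxn1 below the rest is seen in the points.

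Levels of different genes were compared per kilobase of exon, using the summed exon length of each gene over all its transcripts in GENCODE M21. That length can exceed the length of the mRNA expressed, so the order of genes with close levels depends on this choice. In siCtl, Hmox1 was the most abundant at 1919 ± 101 (SD, n = 2) normalized counts per kb, followed by Gsr at 1265 ± 48.8 and Gclc at 885 ± 12.5. Keap1, Gclm, Nqo1 and Nfe2l2 then lay close together at 465, 457, 447 and 437, and the Nqo1 libraries, at 423 to 471, spanned the levels of Gclm and Nfe2l2. Srxn1 at 331 ± 11.9, Slc7a11 at 164 ± 2.72 and Osgin1 at 153 ± 9.87 were the least abundant per length. The 3 most abundant genes kept their order in siUpf1, whereas Nqo1 moved from sixth to eighth place at 161 ± 12.1 (SD, n = 3) and overlapped there with Srxn1 at 167 ± 14.4. The level of Osgin1 per kb in siUpf1 was 40.2 ± 3.25.

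**Figure D3:**
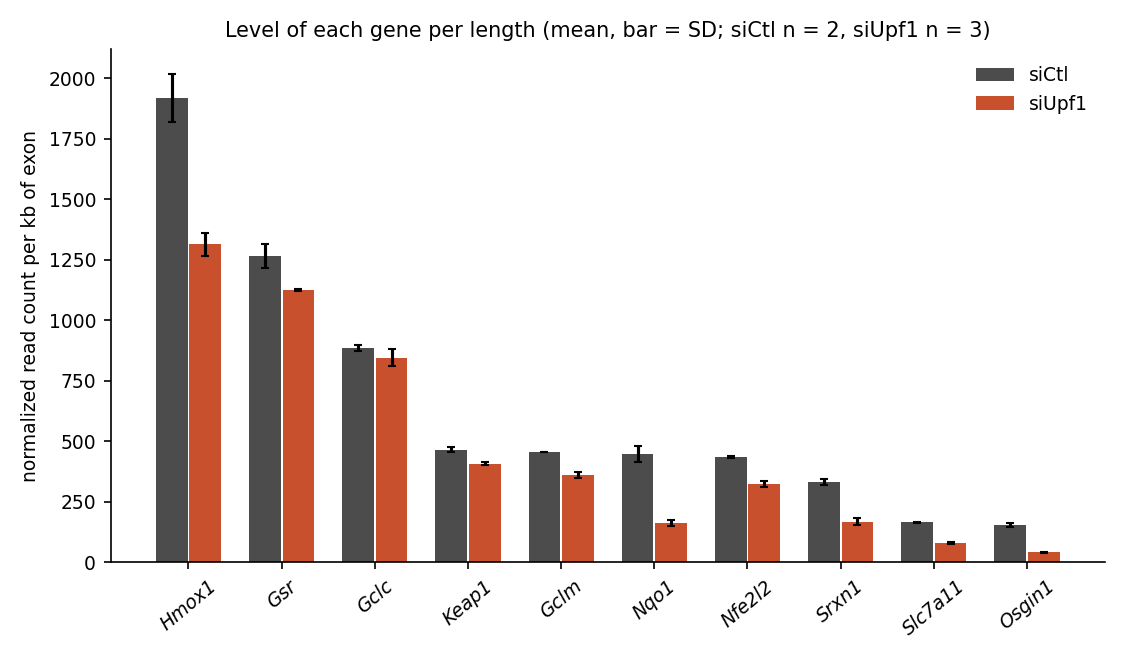
Normalized read count per kb of exon (y axis, from 0) of the 10 genes in siCtl (grey bars, mean of 2 libraries) and siUpf1 (orange bars, mean of 3 libraries), ordered by the siCtl level with SD as error bars. Hmox1, Gsr and Gclc stand above the others in both groups, and Osgin1 has the lowest bar in both.

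Promoter windows from RefSeq (GRCm38.p6), from 250 bases before to 50 bases after the annotated start, were found for 7 of the 10 genes, namely Osgin1, Slc7a11, Nqo1, Gclm, Srxn1, Nfe2l2 and Keap1. Each window was searched on both strands for the core of the antioxidant response element, spelled TGACNNNGC, which 12.4% of all 32851 windows held. It was present in 3 of the 7 windows, those of Gclm, Nfe2l2 and Srxn1. A site of NRF2 with small MAF proteins that has more fixed letters, spelled TGANTCAGC, was held by 1.2% of all windows. Among the 7, the windows of Osgin1 and Srxn1 held it. The C/EBP-ATF element bound by ATF4 dimers, spelled TGATGNAA, was held by 4.0% of all windows and, among the 7, by that of Slc7a11, which had it once on each strand. The windows of Nqo1 and Keap1 held none of the 3 motifs. Sites outside the windows were not searched, so a window without a match does not show that the gene lacks the element. No match of one motif overlapped a match of another. The last 2 motifs were added after the data and windows were seen, and a match describes letters and not binding.

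The windows of Osgin1, Slc7a11 and Srxn1 are printed because these genes were among the 4 with the lowest fold changes and hold the rarer motifs. Each runs 5′ to 3′ along the strand of its gene, and the capitals mark the matches to the 3 motifs. In the Osgin1 window (chr8:119436897-119437196, plus strand), which lies inside the span that GENCODE gives the gene, the match is on the opposite strand and begins 99 bases before the start. In the Slc7a11 window (chr3:50443564-50443863, minus strand) the matches begin 66 and 47 bases before the start, the second on the opposite strand. In the Srxn1 window (chr2:152105274-152105573, plus strand) the site TGANTCAGC begins 45 bases before the start. The core TGACNNNGC lies after the start, on the opposite strand.
Osgin1: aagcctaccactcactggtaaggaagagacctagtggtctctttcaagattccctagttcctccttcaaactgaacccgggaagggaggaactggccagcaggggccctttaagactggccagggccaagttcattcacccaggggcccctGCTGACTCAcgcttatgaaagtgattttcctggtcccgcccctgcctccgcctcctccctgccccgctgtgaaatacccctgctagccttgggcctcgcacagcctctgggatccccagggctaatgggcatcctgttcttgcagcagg
Slc7a11: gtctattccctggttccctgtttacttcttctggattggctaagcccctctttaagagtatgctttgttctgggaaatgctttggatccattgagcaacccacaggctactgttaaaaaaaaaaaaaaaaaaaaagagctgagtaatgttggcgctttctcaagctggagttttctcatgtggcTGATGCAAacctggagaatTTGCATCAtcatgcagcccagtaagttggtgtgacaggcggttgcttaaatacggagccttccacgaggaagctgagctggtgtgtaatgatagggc
Srxn1: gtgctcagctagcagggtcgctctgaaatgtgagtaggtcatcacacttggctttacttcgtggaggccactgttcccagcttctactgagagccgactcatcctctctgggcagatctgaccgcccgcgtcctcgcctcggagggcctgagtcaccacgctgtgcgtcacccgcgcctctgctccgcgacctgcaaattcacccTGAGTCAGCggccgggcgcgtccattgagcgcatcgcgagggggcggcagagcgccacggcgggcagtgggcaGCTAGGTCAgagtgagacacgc

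Matches to the siRNA seeds were counted in the 3′ UTR of 1 representative mRNA per gene. Neither strand of the whole siRNA matched any of the 10 mRNAs. A match to the antisense seed was found in 8.1% of 10967 mRNAs with a mean of at least 50 normalized counts and in 2 of the 10 genes, Slc7a11 and Gclm, with 1 match each. A match to the sense seed was found in 10.4% of those mRNAs and in 3 of the 10 genes, with 3 matches in Slc7a11 and 1 each in Hmox1 and Srxn1. The 3′ UTR of Slc7a11 was 7364 bases long, against a median of 1072 bases among those mRNAs. Osgin1 and Nqo1, which had the lowest fold changes of the 10 genes, held 0 matches to either seed, as did Gclc, Gsr, Nfe2l2 and Keap1. The 3′ UTRs of Osgin1 and Nqo1 were 351 and 594 bases long, below that median, and a short 3′ UTR leaves less room for a match. The seeds of the control siRNA were not searched for. The sites with the antisense seed, and that of Srxn1 with the sense seed, are shown with 10 bases on each side and the match in capitals. The part of these sites in the fold changes was not tested.
Slc7a11, antisense seed: ccacctctttGATAATTtacttcttgg
Gclm, antisense seed: caccgttaaaGATAATTtttattttgc
Srxn1, sense seed: cagaaaggaaAACCTTGttcaaagttt

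The pathway around these 10 genes was read from 6 lists chosen by function. The lists were set with earlier results of these data known, so their counts and medians are a description. Of their 100 tested genes, 48 were called lower, 17 higher and 35 not, with a median log2 fold change of -0.14, against 22.9% lower, 22.0% higher and a median of -0.0024 over all genes tested. Without siCtl replicate 1, siCtl replicate 3 or siUpf1 replicate 3 the lower count was 30, 29 or 31, and without siCtl replicate 3 the higher count was 10. Gpx7 and Ugt1a6a had no read, and Gpx8 and Nfe2l3 had too few to be tested.

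The quinone, carbonyl and conjugation enzymes had 10 of 13 tested genes called lower and 0 higher, with a median of -0.30. Without siCtl replicate 3 the lower count was 6. Cbr3, a carbonyl reductase, was measured at 553.5 and 606.6 normalized read counts in siCtl and at 273.9, 311.3 and 286.1 in siUpf1, so that all siUpf1 libraries were lower (log2 fold change -1.003 with SE 0.123 and DESeq2 adjusted p = 3.87e-15). Nqo2, the relative of Nqo1 that uses another hydride donor, fell by 0.55 on the log2 scale, and Ptgr1, a reductase of prostaglandins and alkenals, fell by 0.48.

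The thioredoxin, peroxiredoxin and superoxide enzymes had 11 of 15 tested genes called lower and 1 higher, with a median of -0.22. Prdx5, a peroxiredoxin of mitochondria, peroxisomes and cytosol, was measured at 1198 and 1227 normalized read counts in siCtl and at 408.2, 481.9 and 426.1 in siUpf1. It was thus at 36.2% of siCtl, close to the value for Nqo1 (log2 fold change -1.47 with SE 0.0966 and DESeq2 adjusted p = 1.9e-50). The mitochondrial Prdx3 fell by 0.90 on the log2 scale, and Txn1, the cytosolic thioredoxin, fell by 0.70. Txn2, the mitochondrial thioredoxin, was the only gene of this list called higher (log2 fold change 0.23 with SE 0.0451 and DESeq2 adjusted p = 1.18e-06).

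The glutathione list moved both ways, with 9 of 26 tested genes called lower and 5 higher and a median of -0.14. Its lower count was 5, 3, 5 and 4 without siCtl replicate 1, siCtl replicate 3, siUpf1 replicate 1 and siUpf1 replicate 3, and its higher count was 3 without siCtl replicate 3. Slc3a2, the heavy chain that carries xCT to the cell surface, was measured at 11820 and 12194 normalized read counts in siCtl and at 15063, 15972 and 14273 in siUpf1. It rose in all 3 libraries, while its partner Slc7a11 was lower in all of them (log2 fold change of Slc3a2 0.33 with SE 0.0486 and DESeq2 adjusted p = 8.97e-11). Cbs, which starts the synthesis of cysteine from homocysteine, had a log2 fold change of 0.65, as had Glrx, a glutaredoxin. Gss, the enzyme that completes glutathione, fell by 0.53, the glutathione transferase Gstm4 fell by 0.53 and Gstp1 fell by 0.44. Transferase genes have close paralogs, so reads could be split or lost among them.

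The NADPH list had 5 of 12 tested genes called lower and 4 higher, with a median of -0.01. The higher count was 2 without each of siCtl replicate 1, siCtl replicate 3, siUpf1 replicate 1 and siUpf1 replicate 2. G6pdx, which opens the pentose phosphate pathway, was measured at 4924 and 4880.4 normalized read counts in siCtl and at 2737, 2890.4 and 2664 in siUpf1. It fell to 56.4% of siCtl (log2 fold change -0.83 with SE 0.0533 and DESeq2 adjusted p = 2.49e-52), and Pgd, the next NADPH-forming enzyme of that pathway, fell by 0.66 on the log2 scale. Malic enzyme Me1 fell by 0.39. The isocitrate dehydrogenases Idh1 and Idh2 rose with log2 fold changes of 0.62 and 0.18, and the mitochondrial folate enzyme Mthfd2 rose with 0.36.

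The heme and iron list had 5 of 11 tested genes called lower and 1 higher, with a median of -0.14. Its lower count was 0, 2 and 1 without siCtl replicate 1, siCtl replicate 3 and siUpf1 replicate 3, and its higher count was 2 without siUpf1 replicate 2. Slc40a1, which encodes the iron exporter ferroportin, was measured at 135.2 and 129.3 normalized read counts in siCtl and at 310.4, 268.6 and 320.9 in siUpf1. It was higher in all 3 siUpf1 libraries, at 227% of siCtl (log2 fold change 1.19 with SE 0.168 and DESeq2 adjusted p = 1.42e-11). Hmox2, the constitutive heme oxygenase, fell by 0.26 on the log2 scale. Blvrb, a biliverdin reductase, fell by 0.34 and Aco1, an iron regulatory protein, fell by 0.16 on that scale.

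Partners and regulators of NRF2 had 8 of 23 tested genes called lower and 6 higher, with a median of -0.0026, and the higher count was 3 without siCtl replicate 3. Cul3, the scaffold of the ligase that KEAP1 serves, was measured at 2436 and 2443.5 normalized read counts in siCtl and at 4269, 3899.5 and 3873 in siUpf1. It rose to 165% of siCtl, while Keap1 itself was lower (log2 fold change of Cul3 0.72 with SE 0.0587 and DESeq2 adjusted p = 7.33e-33). Btrc, the receptor of another ligase that degrades NRF2, rose with a log2 fold change of 0.57. Sqstm1, which encodes p62, a protein that sequesters KEAP1, was measured at 29195 and 29283 in siCtl and at 17531, 18235 and 17417 in siUpf1. It fell to 60.6% of siCtl (log2 fold change -0.72 with SE 0.0378 and DESeq2 adjusted p = 5.67e-79). Bach1, a repressor that competes with NRF2 for its sites, fell by 0.56 and Maff, a small MAF partner, fell by 0.54 on the log2 scale.

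**Figure D4:**
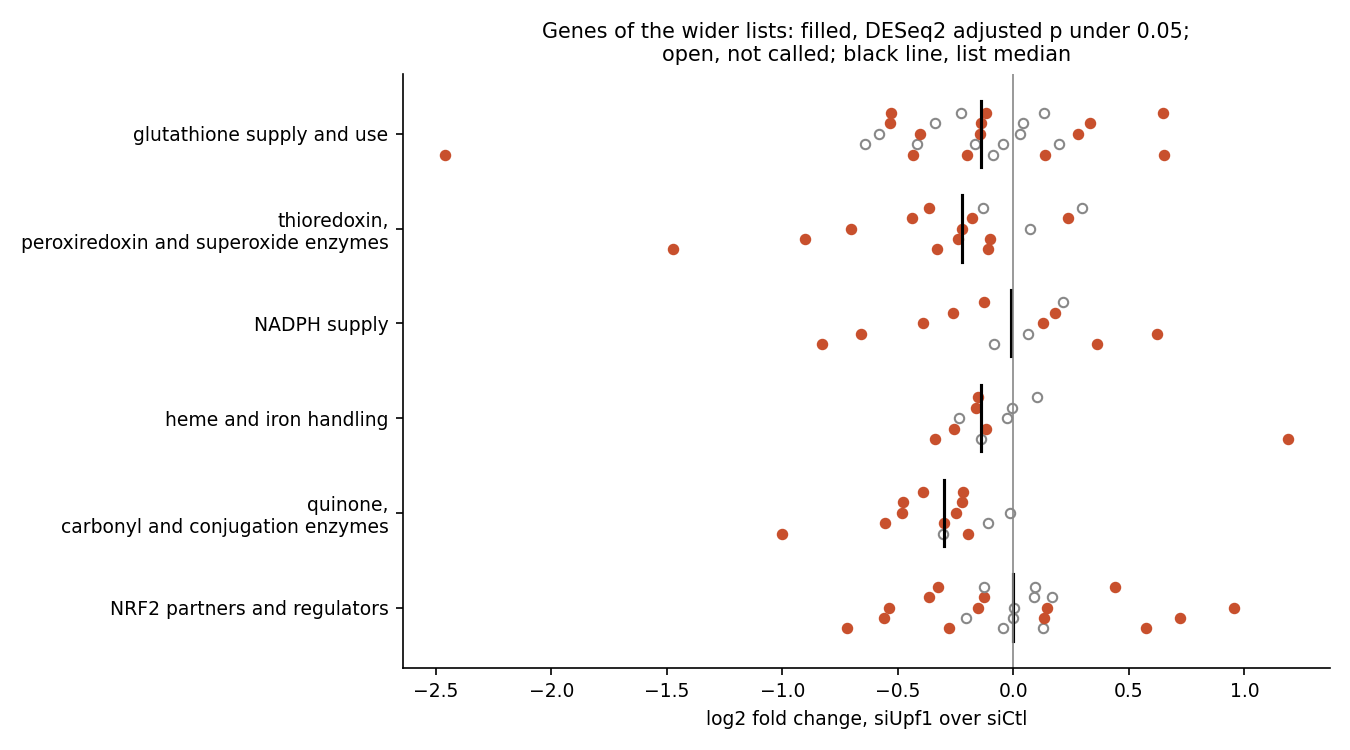
Log2 fold change of siUpf1 over siCtl (x axis) of the 100 tested genes of the 6 lists (rows), filled where the DESeq2 adjusted p was under 0.05 and open where it was not; black lines are list medians. Called genes lie mostly left of 0 for the quinone and thioredoxin lists, whereas the NADPH list and the partners and regulators lie on both sides.

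Likeness was measured among 10962 genes with a mean of at least 100 normalized counts as the Euclidean distance between centered log2 profiles over the 5 libraries. The genes with the profile nearest to Osgin1 were Stx3, Cdipt, Cd82, Snrpa1 and Procr, at distances of 0.239, 0.274, 0.284, 0.287 and 0.293. Those nearest to Slc7a11 were Dusp2, Cdc73, Ddx19a, Nras and Plekha2, at 0.0787, 0.0811, 0.0888, 0.0908 and 0.0981. None of the 10 pathway genes was among the 5 nearest to either. Within the set, the gene nearest to Slc7a11 was Srxn1 (distance 0.127), and the gene nearest to Osgin1 was Nqo1 (0.582). With 5 libraries in 2 groups, the profiles mainly reflect the size of the difference between groups.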

How the data were processed

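The authors demultiplexed and trimmed the reads, mapped them to GRCm38.p6 with STAR 2.7.0f (per the submitters' notes) and counted exonic reads on the reverse strand with featureCounts (Subread 1.6.4) from a stranded poly(A) library. The deposited values are raw read counts per gene, with 1 column per library. Reads that map to several genes may be lost, which touches families with close paralogs. Here the counts of all 55573 genes were fitted by group with DESeq2 1.42.0 in R 4.3.3 (median-of-ratios size factors, Wald test, independent filtering, Benjamini-Hochberg adjustment over 15191 genes, threshold 0.05), the study's own tool. The fit was tested on simulated counts. Alternatives were edgeR 4.0.16, TMM or total-count size factors, a minimum of 10 counts in 2 libraries, no filter, shrunken fold changes, a replicate block and each library left out. Libraries held 20402205 to 27717594 counts. The study describes protein blots of these siRNA-treated cells as independent experiments, but the labels do not say whether the sequenced replicates were separate cultures, and p-values measure the spread between these libraries, which may be technical.

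Genes named were the 10 members, Upf1, Osgin2, the 5 nearest profiles, and per list up to 3 called genes at either extreme with a mean of at least 50 normalized counts. The members and lists were chosen with earlier results of these data known, and 1 lineage marker is not reported here. Positions, exon lengths and mRNAs came from GENCODE M21, and the annotation release behind the counts is given in the methods as either of a pair of later releases. The mRNA used for a 3′ UTR was the APPRIS principal isoform or, where there was none, the one with the longest coding sequence, and mRNAs counted as expressed had a mean of at least 50 normalized counts and 50 or more bases of 3′ UTR. The searches for seeds and for the motifs other than TGACNNNGC were chosen after seeing the data.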

Additional observations from a re-analysis of the deposited data

How the results depend on the processing

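All 10 log2 fold changes stayed below 0 in every alternative. Nqo1, Hmox1, Gclm, Srxn1 and Nfe2l2 stayed called and Gclc stayed uncalled in every alternative that gives a test. The log2 fold change of Gsr ranged from -0.21 to -0.13 and that of Keap1 from -0.22 to -0.175 over the fits that left out one library, and both lost their call without siCtl replicate 1. Shrinkage moved Osgin1 to -1.79. Deviations from the group means correlated at -0.102 between the libraries of replicate 1 and at -0.105 between those of replicate 3. With 2 siCtl libraries, their deviations mirror each other, so the 2 values are not independent and cannot decide whether replicate numbers pair the libraries. The labels give no shared day or batch. With the replicate block, Gsr (-0.17, DESeq2 adjusted p = 0.194) and Keap1 (-0.20, DESeq2 adjusted p = 0.158) were not called, and 1957 genes were called higher and 1962 lower in place of 3341 and 3481. With that block, the lists had 1 higher and 3 lower (glutathione), 7 lower (thioredoxin), 2 higher (NADPH), 1 lower (heme), 6 lower (quinone), 4 lower (partners), and 9 higher and 25 lower in all. The thioredoxin list had 2 higher with edgeR, total counts or the count minimum, and the heme list had 2 lower with total counts and 3 lower with no filter. Leaving out one library gave 3 to 6 higher and 3 to 8 lower (glutathione), 2 to 3 higher (NADPH), 1 to 2 higher and 0 to 4 lower (heme), 6 to 9 lower (quinone), 3 to 7 higher (partners), and 10 to 17 higher and 29 to 43 lower in all. In a fit with 1 siCtl library, that library is assumed to vary like the siUpf1 libraries. TGACNNNGC was in 1 window on the strand of the gene and in 2 on the opposite strand. The cause of these changes was not tested. With 2 and 3 libraries, small differences such as those of Gclc, Gsr and Keap1 are the least certain.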
